A study of Mus musculus with 6 samples.

Results

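The insulin-like growth factor (IGF) system was examined in cultured muscle satellite cells (MuSCs), the stem cells of skeletal muscle, by following its ligands, receptors and binding proteins through the gene counts of an RNA-seq experiment. The set comprised the ligands *Igf1* and *Igf2*, the receptors *Igf1r* and *Igf2r*, and the binding proteins *Igfbp2* to *Igfbp7*, 10 genes picked by symbol. Of these, 9 had a row among the 20654 genes of the count table, and *Igf2* was not analysed here. The set was chosen with earlier results of this contrast known, among them a difference in *Igfbp2*, so the members' values, and whether the fit over all genes called them, are given as a description that supports nothing by itself, with no p-value.

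RNA came from MuSCs of C57BL/6 mice, sorted as VCAM1+, CD31-, CD45- and Sca1- cells and cultured for 3 d on Matrigel in growth medium that contained serum, chick embryo extract and basic FGF. The 3 control libraries carried the label wild type, and the study's caption for the gene set analysis of these data names them *Pax7*CreERT2/+. The 3 libraries labelled *Piezo1* cKO came from *Piezo1* flox/flox; *Pax7*CreERT2/+ mice, in which tamoxifen releases a Cre recombinase made in *Pax7*-expressing cells. According to the study's methods, mice for ex vivo work received daily injections of tamoxifen before isolation. The culture medium of both groups also held 4-OH tamoxifen. N = 3 is given for the isolation of MuSCs for this assay, without saying whether each library was 1 mouse, and the age of the mice is not given. The libraries held between 726378 and 931168 counts, each count being a tagged cDNA molecule. Levels are given as CPM, the counts a gene would have in a library of 1e6 counts, after TMM scaling, which also corrects for composition, and a floor of 3 counts equals between 3.35 and 4.31 CPM.

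The labelled cell type was checked first. *Myod1*, the transcription factor of committed myoblasts, was the most abundant satellite cell marker, at 1384 CPM over the 6 libraries. *Des*, the muscle intermediate filament desmin, followed at 546 CPM. The 7 satellite cell markers summed to 2701, 2345 and 2598 CPM in control libraries 1 to 3, against 2714, 2149 and 2502 CPM in those labelled cKO. *Pax7*, the defining factor of the lineage, had between 5 and 26 counts per library, and its groups overlapped. *Vcam1*, which encodes the antigen used in the sort, was lower in every library labelled cKO than in every control library (log2 fold change -0.45, SE 0.16, edgeR adjusted p = 0.185), and the cadherin gene *Cdh15* was higher in every one (0.53, SE 0.16, edgeR adjusted p = 0.118). These 3 genes were named after their values were seen. *Piezo1*, which encodes the mechanosensitive ion channel and lies at chr8:122481698-122551329 on the minus strand (GRCm38), was counted 11, 5 and 6 times in control, against 7, 12 and 9 times in the libraries labelled cKO. The pooled ratio was 1.35, with an exact 95% interval of 0.744 to 2.47 that covers counting error only. Counts over the whole gene, read mainly near the 3′ end, do not tell a transcript with deleted exons from an intact one, so this does not check the labels.

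IGF1 and IGF2 are secreted peptides that signal through the IGF1 receptor, a tyrosine kinase, to the PI3K-AKT and RAS-MAPK pathways, and in muscle they are known for driving both the proliferation of myoblasts and their differentiation. The IGF2 receptor has no kinase and takes up IGF2 for degradation. The binding proteins hold the peptides outside the cell with high affinity, and can keep them from the receptor, extend their life or deliver them to it, while some also bind cell surfaces or the matrix.

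The regions before the genes of the 3 binding proteins whose groups of libraries did not overlap are shown here. Each is the 250 bases upstream of a RefSeq start site on GRCm38.p6, read 5′ to 3′ on the gene's strand, with E-boxes (CANNTG, a palindromic pattern found the same way on both strands, and the class of site that MyoD family factors bind) in capitals. *Igfbp2* has a second start site in RefSeq, which is not shown. The *Igfbp2* window is chr1:72824230-72824479 on the plus strand, the *Igfbp5* window chr1:72874866-72875115 on the minus strand, and the *Igfbp3* window chr11:7213924-7214173 on the minus strand.
Igfbp2: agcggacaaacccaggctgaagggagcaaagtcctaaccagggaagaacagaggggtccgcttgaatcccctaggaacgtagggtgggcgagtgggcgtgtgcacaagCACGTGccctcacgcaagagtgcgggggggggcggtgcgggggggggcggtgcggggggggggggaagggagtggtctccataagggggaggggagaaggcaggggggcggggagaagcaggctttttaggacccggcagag
Igfbp5: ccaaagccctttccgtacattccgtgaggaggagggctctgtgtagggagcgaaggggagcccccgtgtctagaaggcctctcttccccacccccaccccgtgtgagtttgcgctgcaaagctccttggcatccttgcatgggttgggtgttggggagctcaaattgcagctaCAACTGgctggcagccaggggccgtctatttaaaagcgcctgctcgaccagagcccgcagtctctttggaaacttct
Igfbp3: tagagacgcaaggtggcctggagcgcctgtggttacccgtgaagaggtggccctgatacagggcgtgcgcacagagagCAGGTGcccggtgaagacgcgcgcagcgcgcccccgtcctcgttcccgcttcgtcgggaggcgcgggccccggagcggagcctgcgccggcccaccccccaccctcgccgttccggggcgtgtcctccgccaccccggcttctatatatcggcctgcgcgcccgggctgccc

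Each window holds 1 E-box. It begins 142 bases before the start site in *Igfbp2*, 77 in *Igfbp5* and 172 in *Igfbp3*, and its inner letters differ among the 3. Of 32851 mouse promoter windows of this length, 66.2% hold at least 1 E-box, so its presence does not set these genes apart. The MyoD-type E-box CAGCTG is in 13.0% of all windows and in none of these 3. The *Igfbp2* window also holds the GC box GGGCGG 3 times when both strands are read, a motif in 32.7% of all windows, whereas the others hold none. GC content was 67.2% before *Igfbp2*, 58.8% before *Igfbp5* and 73.2% before *Igfbp3*.

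*Igfbp2* and *Igfbp5* are neighbours. *Igfbp2* occupies chr1:72824503-72852474 on the plus strand and *Igfbp5* chr1:72857932-72874884 on the minus strand, so their 3′ ends face each other across 5457 bases with no annotated gene between. *Igfbp3* lies at chr11:7206086-7213923 on the minus strand and *Igfbp4* at chr11:99041244-99054392 on the plus strand. None of these 4 genes overlaps another annotated gene.

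Among the binding proteins, *Igfbp2* was higher and *Igfbp3* lower in the libraries labelled cKO, and *Igfbp5* was higher with a smaller difference. By edgeR's quasi-likelihood fit over 8551 genes, 67 genes (0.784% of those tested) were called at an adjusted p under 0.05. Of the 7 members with enough counts to enter the fit, *Igfbp2* and *Igfbp3* were among the genes called. The set was chosen by this contrast, so nothing is read from that count. *Igf1* and *Igfbp6* had too few counts to be fitted. The calls of *Igfbp2* and *Igfbp3* depended on single libraries, on the scaling and on the test. Without labelled cKO library 2 neither was called, at log2 fold changes of 1.04 and -0.63 in that order, and without labelled cKO library 3 neither was called, at 1.19 and -0.60. Scaled by total counts only, *Igfbp3* was not called at -0.66, and with limma-voom after cyclic loess normalisation, which changes test and scaling together, neither was, at 1.25 and -0.61. With limma-voom and TMM *Igfbp2* was not called, at 1.29 (*Igfbp3* was, at -0.74). With a replicate block, which groups same-numbered libraries, neither *Igfbp2* nor *Igfbp3* was called, at 1.23 and -0.74.

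*Igfbp2*, which binds IGF2 with preference over IGF1 and carries an RGD motif that integrins recognise, had 66.2, 27.9 and 54.3 CPM in control libraries 1 to 3, against 81.1, 142.6 and 119 CPM in the libraries labelled cKO. Every library labelled cKO lay above every control library, with labelled cKO library 1 nearest to control library 1. Control averaged 49.5 ± 19.6 CPM and the group labelled cKO 114 ± 31.1 CPM (SD, n = 3 each), a ratio of 2.31. The log2 fold change was 1.23 (SE 0.25). As RNA was pooled over all cells of a culture, more cells that make a transcript and more transcript per cell cannot be told apart, here or for the genes that follow.

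*Igfbp3*, the main IGF carrier of serum, differed the other way. It had 503, 715 and 551 CPM in control libraries 1 to 3, against 473, 306 and 292 CPM in the libraries labelled cKO. The groups did not overlap, although labelled cKO library 1 lay close below control library 1, whereas libraries 2 and 3 of the group labelled cKO lay far below all controls. The means were 590 ± 111 CPM in control and 357 ± 101 CPM in the group labelled cKO (SD, n = 3 each), and the log2 fold change was -0.73 (SE 0.16).

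*Igfbp5*, a matrix-binding member known to be made by differentiating myoblasts, had 167, 71.4 and 162 CPM in control and 194, 219 and 195 CPM in the libraries labelled cKO. The groups did not overlap, but control library 2 alone accounted for much of the distance between the means of 133 ± 53.7 and 203 ± 14.4 CPM (SD, n = 3 each). The log2 fold change was 0.62 (SE 0.27), and it was 0.31 without control library 2. *Igfbp5* was not among the genes called. Over all genes tested, 16.5% had groups that did not overlap, 8.20% with the libraries labelled cKO higher and 8.31% with them lower, and the members in those classes were *Igfbp2* and *Igfbp5* and, in the lower class, *Igfbp3*.

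*Igfbp4*, an inhibitory binding protein that PAPP-A cleaves, had 73.3, 43.5 and 39.0 CPM in control and 58.3, 71.3 and 94.1 CPM in the libraries labelled cKO. Control library 1 exceeded 2 of the libraries labelled cKO, so the groups overlapped. The log2 fold change was 0.55 (SE 0.22). *Igfbp7*, a relative with low affinity for IGFs, had between 25.7 and 46.0 CPM in control and between 22.8 and 47.5 CPM in the libraries labelled cKO, at a log2 fold change of -0.15 (SE 0.27). *Igfbp7* overlaps *Polr2b* on the opposite strand, and because strand handling is not given in the sources used here, their reads may not be fully separated. *Igfbp6*, which prefers IGF2, had 13 counts over the control libraries and 10 over those labelled cKO, a ratio of 0.815 with an exact 95% counting interval of 0.32 to 2.01.

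**Figure D1:**
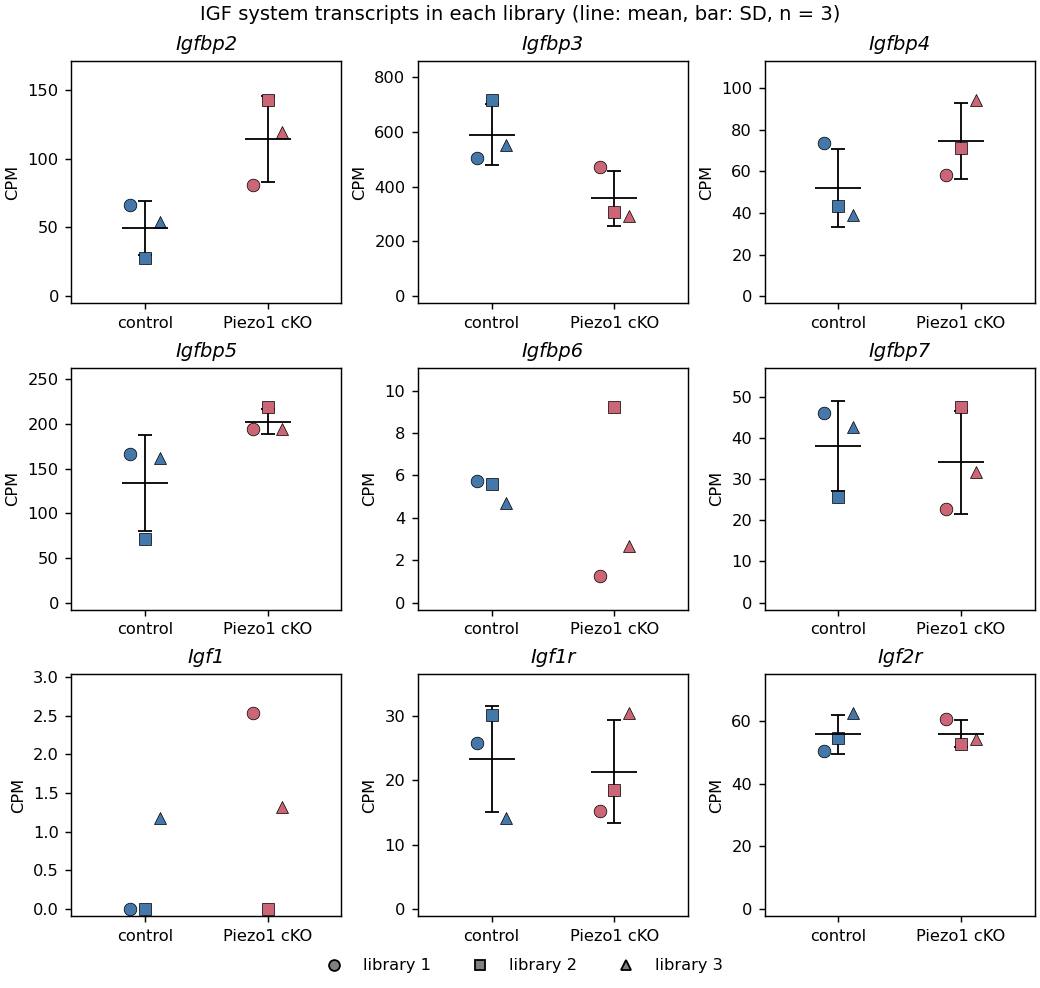
Level of each measured IGF gene in CPM (vertical axis, from 0, with its own scale for each gene) in the 3 control libraries (blue) and the 3 libraries labelled *Piezo1* cKO (red), where marker shape gives the library number and, for genes that entered the fit, lines and bars give mean and SD. The groups separate for *Igfbp2*, *Igfbp3* and *Igfbp5* and overlap for the other genes.

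The receptors differed little between the groups. *Igf2r* had 50.3, 54.7 and 62.6 CPM in control and 60.8, 52.8 and 54.3 CPM in the libraries labelled cKO, with means of 55.9 ± 6.21 and 56.0 ± 4.26 CPM (SD, n = 3 each). This was the smallest difference among the members fitted, with an SE of 0.21 on the log2 scale. *Igf1r* had 25.9, 30.1 and 14.2 CPM in control and 15.2, 18.5 and 30.5 CPM in the libraries labelled cKO. Its range was nearly the same in both groups, and the log2 fold change of -0.13 (SE 0.33) was within the spread. At 12 to 27 counts per library, a modest change in *Igf1r* was not detectable at this depth. *Igf1* itself was at the limit of detection, with counts of 0, 0 and 1 in control against 2, 0 and 1 in the libraries labelled cKO, all under the floor of 3 counts, so no fold is given.

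**Figure D2:**
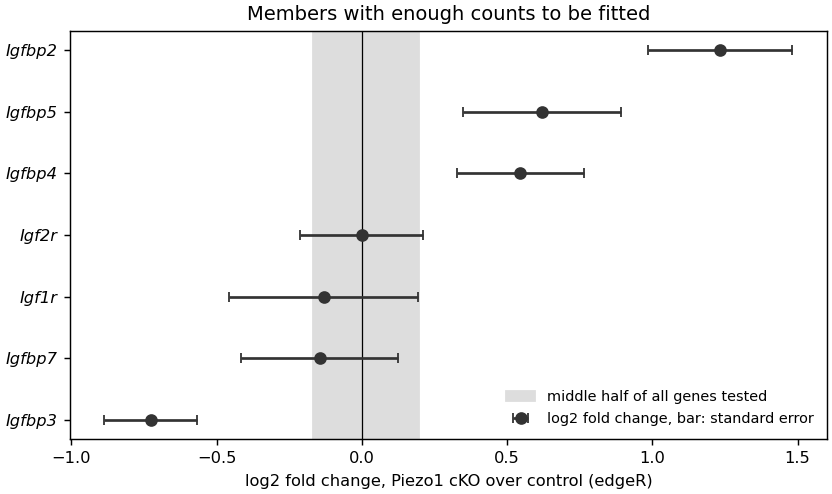
Log2 fold change (horizontal axis, libraries labelled *Piezo1* cKO over control, with standard errors) of the 7 members fitted by edgeR, with the middle 50% of all genes tested shaded. *Igfbp2* lies at 1.23 and *Igfbp3* at -0.73, and the intervals of 1 standard error of both receptors and *Igfbp7* include 0.

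The order of the genes by level was compared per kilobase of the longest annotated transcript, with the reservation that tags are counted once a molecule near its 3′ end and need not scale with length. In control, the order was *Igfbp3* at 244 CPM per kb, *Igfbp2* at 37.8, *Igfbp7* at 31.7, *Igfbp5* at 22.2, *Igfbp4* at 13.6, *Igf2r* at 6.29, *Igfbp6* at 4.81, *Igf1r* at 2.05 and *Igf1* last. Neighbours from *Igfbp2* to *Igfbp4* overlapped between libraries, whereas *Igfbp3* stood apart above all others. In the libraries labelled cKO, *Igfbp3* was still the first, at 147 CPM per kb. *Igfbp2* followed at 87.5 and no longer overlapped the next gene, *Igfbp5*, at 33.7 CPM per kb. *Igfbp7* at 28.4 overlapped *Igfbp5* above it and *Igfbp4* below it, and *Igf2r*, *Igfbp6* and *Igf1r*, the next in order, overlapped in turn. The order depended on the scale. In CPM without regard to length, *Igfbp5* came next after *Igfbp3* in both groups, and *Igfbp2* was at rank 5 in control, where it overlapped its neighbours, and at rank 3 in the libraries labelled cKO, below *Igfbp5* with no overlap.

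The balance among the binding proteins was read from the same counts as the levels above, so it is a description and not a separate result. Together, *Igfbp2* to *Igfbp7* amounted to 861, 889 and 854 CPM in control and 830, 796 and 734 CPM in the libraries labelled cKO. After TMM scaling the sum was thus lower in every library labelled cKO, by a small margin, but scaled by total counts only it was 808, 856 and 811 against 809, 830 and 720 per 1e6 counts, and the groups overlapped. *Igfbp3* took 67.8 ± 11.4% of these counts in control and 45.0 ± 10.3% in the group labelled cKO (SD, n = 3 each). The share of *Igfbp2* was 5.73 ± 2.34% in control and 14.6 ± 4.30% in the group labelled cKO, and that of *Igfbp5* was 15.5 ± 6.43% and 25.8 ± 2.18%. Shares are parts of a whole, so a lower share of *Igfbp3* by itself raises those of the others.

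Within the groups the balance varied widely. *Igfbp3* held 58.4%, 80.4% and 64.6% in control libraries 1 to 3, against 56.9%, 38.5% and 39.7% in the libraries labelled cKO. By 95% Wilson intervals, which cover counting error only, control library 1 (54.4% to 62.3%) and labelled cKO library 1 (53.1% to 60.7%) could not be separated on this share. The ratio of *Igfbp3* to *Igfbp2* counts was 7.61, 25.6 and 10.2 in control, against 5.83, 2.15 and 2.44 in the libraries labelled cKO. Without *Igfbp3*, the other binding proteins summed to 358, 174 and 302 CPM in control and 357, 490 and 443 CPM in the libraries labelled cKO, which overlapped.

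**Figure D3:**
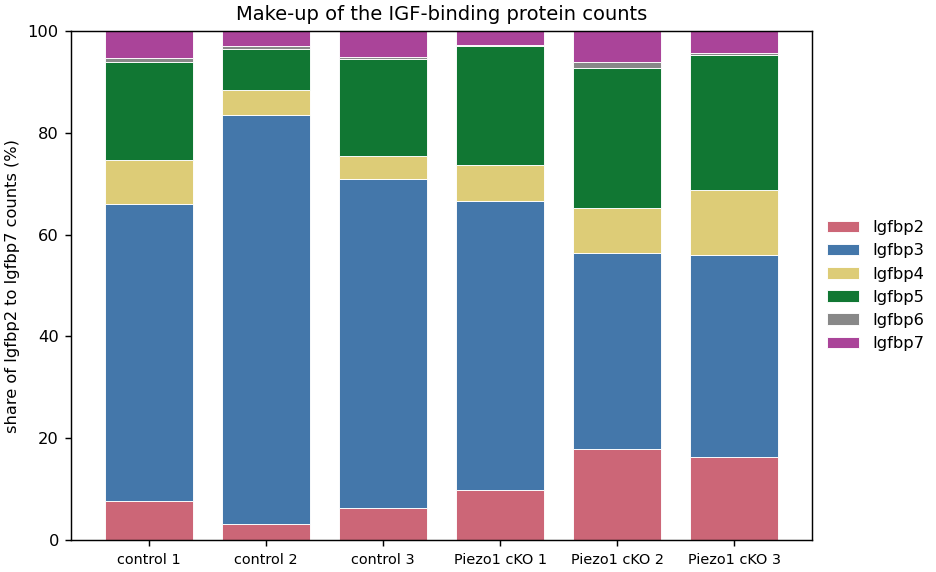
Share of each binding protein in the summed *Igfbp2* to *Igfbp7* counts of each library, in percent from 0 to 100 (stacked bars, 1 bar for each library). *Igfbp3* fills the largest share, from 80.4% in control library 2 to 38.5% in labelled *Piezo1* cKO library 2, and labelled *Piezo1* cKO library 1 resembles control library 1.

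The libraries also differed in markers of myogenic differentiation, the fusion and contraction programme of muscle cells. Over the 10 listed markers with a row, the sum was 309, 114 and 275 CPM in control libraries 1 to 3, against 545, 1553 and 716 CPM in the libraries labelled cKO. All 7 of these markers that entered the fit were higher in every library labelled cKO than in every control library, beside 8.20% of all genes tested, and 1 was called, beside 0.784% of all genes tested. This was *Tnni2*, a fast-fibre troponin subunit, at a log2 fold change of 2.16 (SE 0.45, edgeR adjusted p = 0.00459). *Tnni2* and the cardiac actin gene *Actc1* passed the filter on low counts only through the libraries labelled cKO, where they were high, so nothing is read from the count of 7 or from this call. *Tnni2* was not called without labelled cKO library 2 (log2 fold change 1.84, edgeR adjusted p = 0.277). The most abundant were *Acta1*, skeletal actin, with a log2 fold change of 2.01 (SE 0.49, edgeR adjusted p = 0.241, and 0.00485 by DESeq2), and *Tnnt3*, a fast troponin, with 1.19 (SE 0.42, edgeR adjusted p = 0.377). With no filter on low counts *Tnnt3* was called, at 1.18 (edgeR adjusted p = 3.4e-07). Without control library 2 it was called as well, at 0.83 (edgeR adjusted p = 0.00194).

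Ranked by the summed differentiation markers, the libraries ran from control 2 through control 3, control 1, labelled cKO 1 and labelled cKO 3 to labelled cKO 2. *Igfbp2* and *Igfbp5* ranked the 6 libraries in the same order, but for *Igfbp5* this rests on near ties, at 194 and 195 CPM in labelled cKO libraries 1 and 3 and at 167 and 162 CPM in control libraries 1 and 3. *Igfbp3* ranked them in reverse, apart from labelled cKO libraries 2 and 3, which changed places at 306 and 292 CPM. The marker sum and these 3 genes each separated the groups, so only the order within each group was free to differ. All values come from the same 6 libraries and share their depth and scaling. Whether the differentiation markers have a part in the binding protein differences was not tested.

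**Figure D4:**
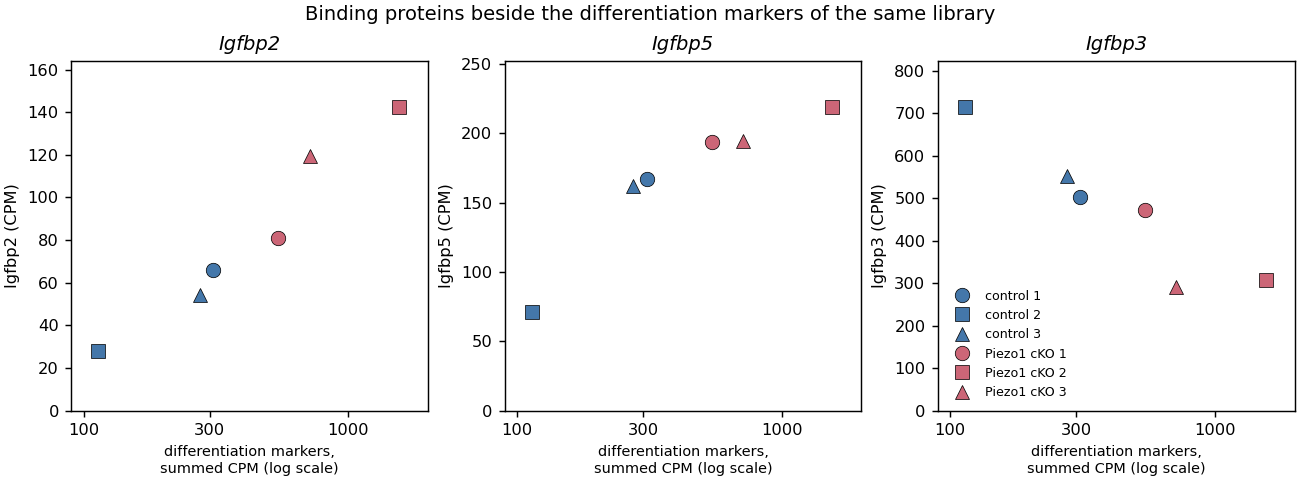
Level of *Igfbp2*, *Igfbp5* and *Igfbp3* (vertical axes, CPM, from 0) against the summed level of the differentiation markers of the same library (horizontal axis, CPM, log scale), 1 point for each library. The first 2 genes are lowest in control library 2, where the markers sum to 114 CPM, and highest in labelled *Piezo1* cKO library 2, where they sum to 1553 CPM, whereas *Igfbp3* is highest in control library 2 and lowest in labelled *Piezo1* cKO library 3.

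Markers of cells that the sort was meant to remove were also read. Fibro-adipogenic progenitor markers summed to 324, 407 and 464 CPM in control and 280, 337 and 346 CPM in the libraries labelled cKO, over the 7 of 8 listed that had a row. *Gsn*, the most abundant at 244 CPM, had a log2 fold change of 0.17 (SE 0.15, edgeR adjusted p = 0.713). *Dcn*, the matrix proteoglycan decorin, had 25.9, 25.7 and 43.7 CPM in control against 10.1, 6.60 and 3.98 CPM in the libraries labelled cKO, a log2 fold change of -2.17 (SE 0.38). It was called (edgeR adjusted p = 3.9e-04), but it passed the filter on low counts only through the control libraries, where it was high, so nothing is read from this call. *Cd34*, which quiescent MuSCs make as well, had a log2 fold change of -1.59 (SE 0.40, edgeR adjusted p = 0.181, and 8.2e-04 by DESeq2). Of the list, 3 genes could be fitted. *Ly6a*, which encodes the Sca1 antigen that the sort selected against and is named after its values were seen, went the other way, with 2, 2 and 3 counts in control against 5, 8 and 9 in the libraries labelled cKO. The part of these cells in the *Igfbp3* difference was not tested.

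Markers of other cell types were low. Endothelial markers summed to between 8.27 and 21.2 CPM and leukocyte markers to between 10.1 and 27.9 CPM in single libraries, led by *Tek* and *Egfl7* and by *Cd68* and *Lyz2*. Of 6 listed for each type, 5 endothelial and 3 leukocyte markers had a row. *Lyz2* had 11 counts in control library 2 and 0 or 1 in every other library. Mural and Schwann cell markers summed to 50.3, 34.6 and 44.9 CPM in control against 58.3, 59.4 and 83.5 CPM in the libraries labelled cKO, and so were higher in each of the latter. Most of the sum was *Cspg4*, the proteoglycan NG2 of pericytes (log2 fold change 0.76, SE 0.25, edgeR adjusted p = 0.143), which did not overlap between the groups. *Pdgfrb* was the second most abundant of the list and overlapped, and *Rgs5*, named after its values were seen, had 0, 0 and 1 counts against 2, 4 and 6. The part of these cells in the binding protein differences was not tested.

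The genes most like *Igfbp2* were found by the root mean square difference of centred log2 CPM over the 6 libraries. They were *Synpo2l*, which encodes a sarcomere-associated protein, at 0.12 log2 units, *Cacng1*, a calcium channel subunit of skeletal muscle, at 0.13, *Lrrn1* and *Tmem119* at 0.14 each and *Shisa2* at 0.18. For *Cacng1* the groups overlapped, and it was not called (edgeR adjusted p = 0.0567). Whether these genes share a function was not tested. *Synpo2l* had 38.8, 16.7 and 40.1 CPM in control and 52.0, 83.2 and 82.2 CPM in the libraries labelled cKO, lowest in control library 2 as *Igfbp2* was. Among the 8550 other genes tested, *Igfbp5* stood at rank 61 in likeness to *Igfbp2* and *Igfbp4* at rank 352, whereas *Igfbp3* stood at rank 8493, close to the far end. The profiles include the difference between the groups, by which the set was chosen. Nothing is therefore read from the ranks of the members.

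Transcripts from imprinted loci beside *Igf2* and *Igf2r* were read next. *H19*, a long non-coding RNA downstream of *Igf2* and made from the maternal allele, rose in the libraries labelled cKO (log2 fold change 1.05, SE 0.17, edgeR adjusted p = 3.9e-04). It had 145, 80.3 and 145 CPM in control and 283, 264 and 216 CPM in the libraries labelled cKO, with no overlap. Without labelled cKO library 2 it was not called, at a log2 fold change of 1.02 (edgeR adjusted p = 0.0800). *Airn*, the antisense RNA that overlaps *Igf2r*, had 2 to 6 counts per library, and without stated strand handling its reads cannot be told apart from those of *Igf2r*. *Igf2os*, antisense to *Igf2*, had no count in any library.

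The genes that act around and downstream of the receptor gave no call. Outside the family, 88 genes were listed in 6 groups, of which 80 had a row and 56 entered the fit. None passed an adjusted p of 0.05 in edgeR or in DESeq2, which tested 27 of them, and 7 of 56 (12.5%) had an unadjusted p under 0.05 in edgeR, beside 11.9% of all genes tested. The median log2 fold change over the 56 genes was 0.10, with 36 positive and 20 negative, beside a median of 0.00 and 50.2% positive over all genes tested. The groups of libraries did not overlap for 8 of the 56 genes with the libraries labelled cKO higher (14.3%, beside 8.20% of all genes tested) and for 4 with them lower (7.14%, beside 8.31%). Of the 8, *Pik3r3* and *Sesn3* passed the filter on low counts only through the libraries labelled cKO, so these shares, and the median and signs above, are a description.

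Of the other ligand, receptor, carrier and mRNA-binding relatives, only *Igf2bp2*, which binds *Igf2* mRNA, could be fitted. It had 12, 3 and 8 counts in control and 18, 20 and 12 in the libraries labelled cKO, at a log2 fold change of 1.18 (SE 0.40, edgeR adjusted p = 0.162), and the groups overlapped. Without control library 1 *Igf2bp2* was called, at 1.76 (edgeR adjusted p = 0.0450), and without control library 2 it was at 0.74 and not called. The insulin receptor gene *Insr* had 1 to 4 counts per library. Of the proteases that cleave binding proteins and their inhibitors, 3 were fitted. *Ctsd*, which encodes the lysosomal protease cathepsin D, had 1294 ± 120 CPM in control and 1278 ± 181 CPM in the group labelled cKO (SD, n = 3 each), and *Mmp2*, a gelatinase, had a log2 fold change of 0.31 (SE 0.26, edgeR adjusted p = 0.684).

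Among receptor-proximal adaptors and brakes, 12 of 17 were fitted, at a median log2 fold change of 0.14. *Nedd4*, a ubiquitin ligase, and *Grb10*, an adaptor that binds the activated receptor, were the most abundant, with log2 fold changes of 0.05 (SE 0.14) and 0.08 (SE 0.15). In the PI3K, AKT, mTOR and FOXO branch, 26 of 31 genes were fitted, at a median of 0.02. *Eif4ebp1*, a translation repressor that mTOR inactivates, was at -0.23 (SE 0.14, edgeR adjusted p = 0.512) and the kinase gene *Akt1* at -0.15 (SE 0.14, edgeR adjusted p = 0.716). The widest differences of this branch, named after their values were seen, were those of *Eif4ebp2*, a relative of *Eif4ebp1*, at -1.10 (SE 0.34, edgeR adjusted p = 0.117), and of the PI3K regulatory subunit gene *Pik3r3*, at 1.01 (SE 0.38, edgeR adjusted p = 0.228).

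In the RAS and MAPK branch, 8 of 10 genes were fitted, and the abundant *Map2k2*, a MAPK kinase, and *Nras*, a RAS GTPase, differed by 0.02 (SE 0.14) and 0.15 (SE 0.14) on the log2 scale. *Araf*, a RAF kinase named after its values were seen, was at 0.61 (SE 0.18, edgeR adjusted p = 0.0930). Of 10 genes that FOXO factors are known to induce when IGF signalling is low, 6 were fitted, with log2 fold changes of -0.20 to 0.77. Their median was 0.21, with 5 positive and 1 negative, given as a description. The most abundant of the 6, *Cited2*, was the negative gene and was lower in every library labelled cKO (log2 fold change -0.20, SE 0.13, edgeR adjusted p = 0.574). *Sesn3*, which encodes an inhibitor of mTOR and is named after its values were seen, was higher in every one (0.77, SE 0.40, edgeR adjusted p = 0.439), and *Ccng2* was at 0.32 (SE 0.26, edgeR adjusted p = 0.670). The integrin subunits that recognise RGD motifs such as that of IGFBP2 were led by *Itgb1*, at -0.19 (SE 0.14, edgeR adjusted p = 0.620), and *Itgav*, at 0.26 (SE 0.16, edgeR adjusted p = 0.553).

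**Figure D5:**
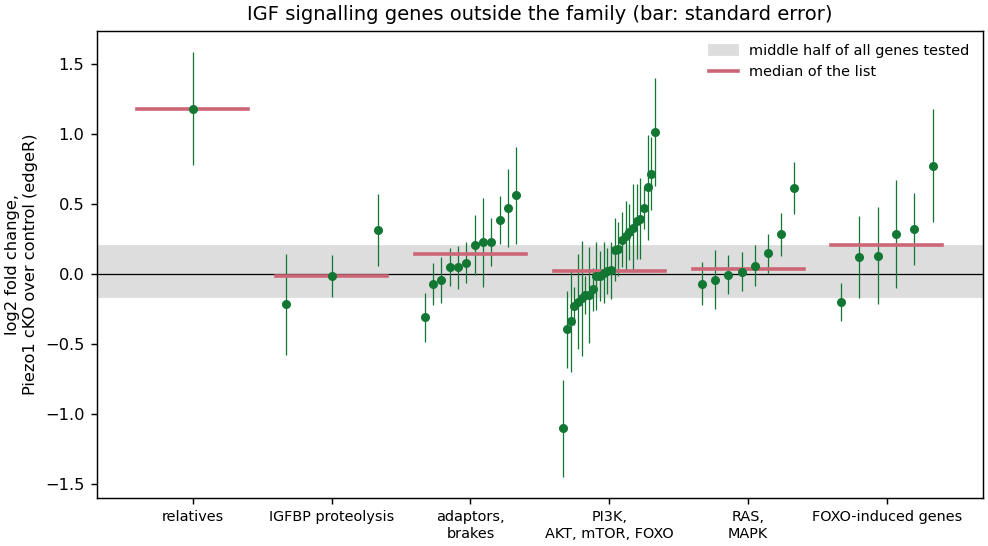
Log2 fold change (vertical axis, libraries labelled *Piezo1* cKO over control, with standard errors) of the 56 fitted genes of the 6 IGF signalling groups, with group medians as red lines and the middle 50% of all genes tested shaded. The points run from *Eif4ebp2* at -1.10 to *Igf2bp2* at 1.18, with 36 positive and 20 negative.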

How the data were processed

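Cultured MuSCs gave 3 control libraries and 3 labelled *Piezo1* cKO, grouped by the sample labels. The deposited values are counts of unique molecular identifiers per gene, not normalised, which the authors made with oligo-dT priming, STAR 2.7.9a, GRCm38, featureCounts 2.0.1 and UMI-tools 1.1.1. Settings for strand and multi-mapping reads are not given in the sources used here. The libraries held 726378 to 931168 counts.

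Counts were fitted in R 4.3.3 with edgeR 4.0.16 (TMM, minimum count 10, robust quasi-likelihood fit, Benjamini-Hochberg adjustment over 8551 genes, threshold 0.05). The standard error is the fold change over the root of its F statistic. The members and gene lists were chosen with earlier results of these data known. Genes named were the members, *Piezo1*, in every other list those called and the 2 most abundant, imprinted neighbours, and the 5 tested genes nearest *Igfbp2* (prior count 2). Others are marked. The labels do not say that libraries came from separate mice, so p-values measure the spread between libraries, which may be technical. No pair of libraries in a group was as alike as sampling noise alone would give (chi-square per degree of freedom 1.64 to 2.61). On 8367 genes simulated after this comparison, 184 of 200 genes changed by 1.5 on the log2 scale, more than any member differed, were recovered with 16 false calls. Alternatives were DESeq2 1.42.0, limma 3.58.1, other scalings and filters, a replicate block and each library left out. Positions are from GENCODE and promoters from RefSeq.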

Additional observations from a re-analysis of the deposited data

How the results depend on the processing

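*Igfbp2*, *Igfbp3*, *Igfbp4* and *Igfbp5* kept their direction in 14 of 14 alternatives, with log2 fold changes of 0.94 to 1.48, -0.99 to -0.56, 0.34 to 0.85 and 0.31 to 0.81. *Igf1r* and *Igfbp7* did so in 12 and *Igf2r*, near 0, in 6. *Igfbp2* and *Igfbp3* were each called in 9 of 14. The number of members called was 2, and it was 1 with total counts only (*Igfbp2*), 1 with limma-voom and TMM (*Igfbp3*), 0 with limma-voom after cyclic loess, 0 with the replicate block, 3 with no filter on low counts (*Igfbp5* in addition), and 0 to 2 with each library left out, 0 without labelled cKO library 2 or 3. Over all genes, 67 were called (40 higher), against 54 with limma-voom and TMM (30 higher), 22 with limma-voom after cyclic loess (12 higher), 27 with DESeq2 defaults (12 higher) and 129 with no filter (82 higher), and with total counts only 67 were called, 49 of them higher. With each library left out the count ran from 6 to 174, with 6 without labelled cKO library 2, 29 without labelled cKO library 3, 105 without control library 1, 131 without control library 3 and 174 without labelled cKO library 1. IGF signalling genes called ran from 0 to 2 with a library left out, namely *Igf2bp2* without control library 1, *Araf* without control library 3, and *Araf* and *Eif4ebp2* without labelled cKO library 1. Genes outside the family with differences near 0 changed sign. *Ctsd* was at 0.057 with total counts only and 0.23 with limma-voom after cyclic loess, and *Myod1* at 0.093 with the latter. With a library left out, *Ctsd* ran from -0.11 to 0.091, *Map2k2* from -0.11 to 0.21, *Des* from -0.026 to 0.24, *Grb10* from -0.048 to 0.22 and *Nedd4* from -0.024 to 0.13. With no change of sign, *Ccng2* ran from 0.050 to 0.66 in those fits, *Gsn* from 0.031 to 0.41 and *Mmp2* from 0.15 to 0.49. *H19* was called in 13 of 14 alternatives. *Acta1* and *Cd34* were called in 4 of 14 each, both by DESeq2 among them. *Tnnt3* was called in 2 of 14. Why these counts moved was not tested. Same-numbered libraries did not deviate together (correlations -0.143, -0.202 and 0.0117), so they share only a number. With the replicate block 46 genes were called. Depth limits what can be said of *Igf1*, *Igfbp6*, *Igf1r* and *Piezo1*.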
